A study of Drosophila melanogaster with 3 samples.

Results

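The genes described are 10 genes of Drosophila melanogaster that encode Polycomb repressive complex 1 (PRC1) and the Pho repressive complex (PhoRC): Pc, Psc, Sce, ph-p, ph-d, Su(z)2, Scm, Sfmbt, pho and phol. They were taken by name from 13945 protein-coding genes, and every peak with its summit inside a gene or within 1 kb of any of its transcription start sites (TSSs) was assigned to it. The assay was ChIP-seq of the zinc finger protein Zif (gene CG10267) in whole mixed-sex embryos aged 0 to 24 h. The flies were a transgenic line with GFP fused to the C-terminal end of Zif, precipitated with an anti-GFP antibody, and the promoter that drives the transgene is not stated in the labels. All 3 biological replicates belonged to this 1 group, so no treatment or genotype was compared. A whole embryo mixes all cell types, so a peak does not say in which cells it was bound.

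Polycomb group proteins keep developmental genes silent once the early embryo has set their pattern. PRC1 holds the chromodomain protein Pc, which reads trimethylated lysine 27 of histone H3, the ubiquitin ligase Sce (dRing), Psc or its paralog Su(z)2, and a Polyhomeotic protein from ph-p or ph-d, with Scm more loosely attached. PhoRC joins Sfmbt, an MBT-domain protein, to the DNA-binding protein Pho or its paralog Phol, and helps to bring PRC1 to Polycomb response elements. Several of these genes, among them ph and the Psc and Su(z)2 pair, are themselves known to be bound and held in check by Polycomb proteins.

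The authors' final set held 8630 summits chosen by the irreproducible discovery rate (IDR), with signals, the peak caller's value for each peak, from 203.9 to 8172 and a median of 405. The pooled list and each replicate's list, called relaxed because they keep weak peaks, held 30000 summits each. The IDR set was the 8630 strongest summits of the pooled list, and that list's signals fit the sum of all 3 replicates, so the replicates are not independent of the calls. The relative signal below is a replicate's signal over its median at the IDR peaks, with medians of 202, 105 and 142 in replicates 1, 2 and 3. Depth is unknown because read counts do not come with the peaks, so missing peaks are no evidence of missing binding.

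An IDR summit lay within 500 bp of a TSS of 8 of the 10 genes, all but Psc and Sce. By the same measure 41.0% of all protein-coding genes were called. Counting the whole gene and 1 kb around its TSSs, 9 of the 10 genes held an IDR summit, all but Sce, against 47.0% of all protein-coding genes. Psc, ph-p, ph-d and Sfmbt held at least 2 summits (4 of 10, against 15.7% of all genes), and ph-p and ph-d held at least 3 (2 of 10, against 5.15%). The genes had a median length of 8360 bp against 2166 bp for all protein-coding genes, though Sce, the gene without an IDR summit, was 1599 bp long. The part of length in these counts was not tested.

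The weak calls depended on the list used. In the pooled relaxed list all 10 genes held a summit within 500 bp of a TSS, against 56.3% of all genes, and 10 of 10 did so in each replicate's relaxed list, against 50.5%. When each replicate's list was limited to its 8630 strongest summits, 7 of the 10 genes were called in every replicate, against 33.8% of all genes. The genes missing there were Sce, Su(z)2 and pho, while Psc was called, though not at the same site in every replicate. The IDR set ended at a signal of 203.9. Just outside it lay the promoters of Psc and Sce, with pooled signals of 193 and 179, and just inside it those of pho and Su(z)2, with 243 and 252.

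In all, 16 IDR summits in 14 intervals were assigned to these genes, with 8 upstream of the whole gene, 5 in introns and 3 in 5′ UTRs. A summit of each replicate lay within 150 bp of 15 of the 16, and the positions of the 3 replicate summits spanned a median of 33 bp. The exception was pho, where replicate 1 had no summit that close. The relaxed lists held 41 summits at the 10 genes in the pooled list, 39 in replicate 1, 39 in replicate 2 and 34 in replicate 3.

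**Figure D1:**
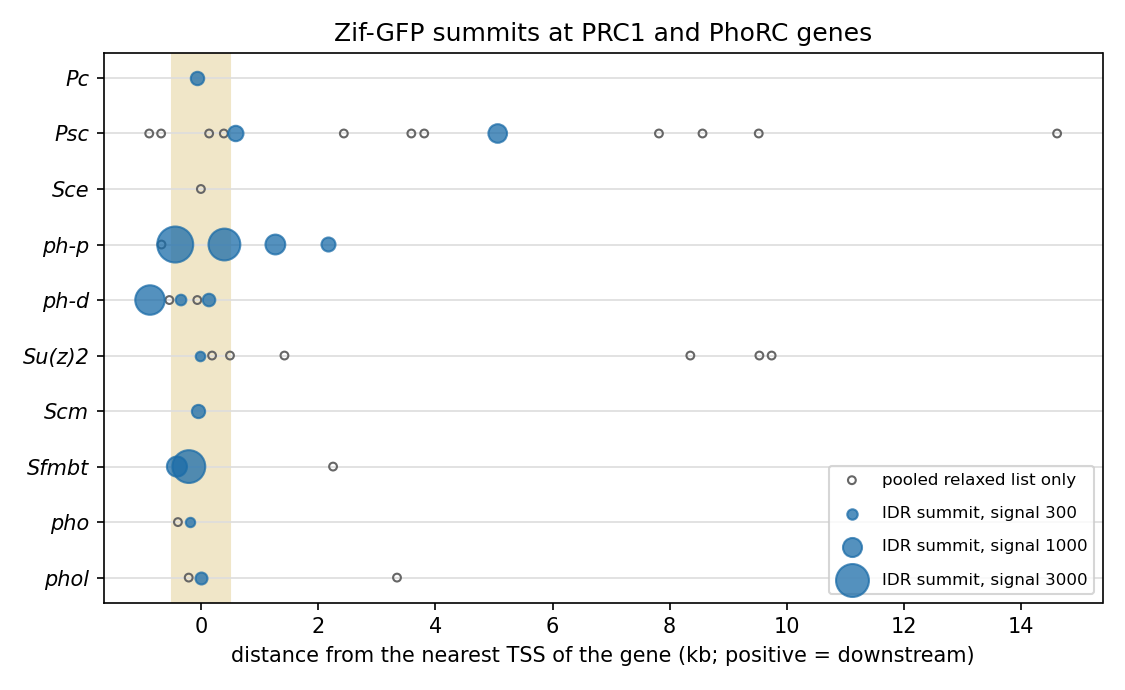
Each row is a gene, and the x axis is the distance of a summit from the nearest TSS of that gene in kb, with positive values downstream and the band marking 500 bp either side. Filled circles are IDR summits with area proportional to signal and open circles are summits of the pooled relaxed list only: ph-p, ph-d and Sfmbt hold the largest circles, while Sce has 1 open circle alone.

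Signal was uneven across the set. The strongest promoter summit of the 8 called genes had a median signal of 462, with a range of 243 to 3582, beside a median of 517 over the 5723 called protein-coding genes. Only ph-p and Sfmbt were above that median, stronger than 97.1% and 94.1% of called genes. Pc, Scm, ph-d and phol lay in the middle, each stronger than 35.1% to 47.9% of called genes, and Su(z)2 and pho near the bottom, stronger than 9.65% and 7.76%. Within 500 bp of a TSS, the relative signal was above 1 in all 3 replicates for ph-p and Sfmbt and in no replicate for Psc, Sce, Su(z)2 and pho.

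**Figure D2:**
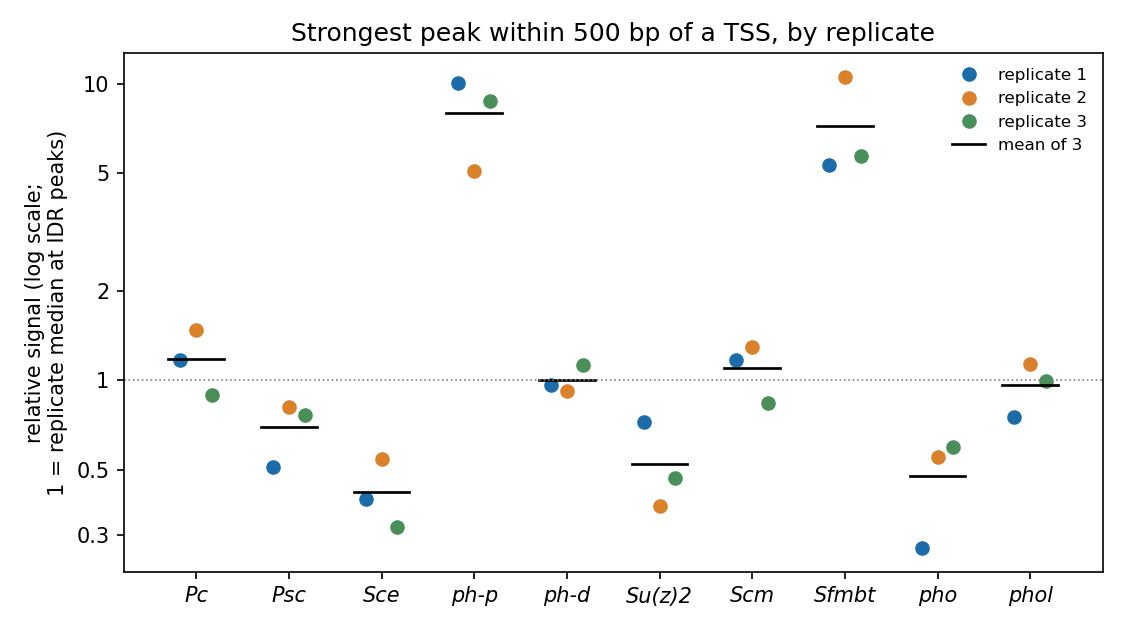
The y axis is the relative signal, on a log scale, of the strongest peak within 500 bp of a TSS in each replicate's relaxed list, with points for the 3 replicates, a line for their mean and a dotted line at the replicate median over IDR peaks. ph-p (5.07 to 10.1) and Sfmbt (5.35 to 10.6) stand above the other 8 genes, whose values all lie between 0.271 and 1.47.

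Pc, the chromodomain subunit that gives the group its name (FBgn0003042, dm6 3L 21306138 to 21318020, minus strand), had 1 IDR peak at its only TSS. The summit lay 64 bp upstream with a signal of 497. Pc had a signal of 236 in replicate 1, 156 in replicate 2 and 127 in replicate 3. As relative signal that is 1.18 ± 0.292 (SD, n = 3), so the Pc promoter sat at the level of a typical IDR peak within the spread of the replicates. Of the 30-base stretches of the gene and 1 kb either side, 65.3% occur more than once in the genome, but none of those in the peak do. Whether repeats kept peaks out of the gene body was not tested. Sce, the ubiquitin ligase (FBgn0003330, dm6 3R 27680431 to 27682029, minus strand), had no IDR peak, and its gene region had no repeated stretch. Its pooled summit lay 5 bp upstream of the TSS at rank 9568, with 80.9 in replicate 1, 57.4 in replicate 2 and 45.4 in replicate 3 as signal. The relative signal of 0.421 ± 0.114 (SD, n = 3) was the lowest of the 10 genes, although its spread overlapped those of pho and Su(z)2. Upstream sequence of both promoters is shown because it sets a called and an uncalled promoter of 1 complex side by side, from the plus strand of dm6, with CGATA on either strand in capitals.
Pc promoter, chr3L:21318021-21318208: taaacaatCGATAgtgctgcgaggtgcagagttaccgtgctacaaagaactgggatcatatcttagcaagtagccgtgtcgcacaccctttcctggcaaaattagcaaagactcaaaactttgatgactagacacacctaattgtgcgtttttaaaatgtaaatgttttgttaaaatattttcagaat
Sce promoter, chr3R:27682030-27682158: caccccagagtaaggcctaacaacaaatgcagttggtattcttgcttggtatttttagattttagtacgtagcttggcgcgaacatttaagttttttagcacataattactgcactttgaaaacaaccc
The Pc stretch holds 1 CGATA and the Sce stretch none.

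The 2 Polyhomeotic genes, which encode PRC1 subunits with a SAM domain that can link complexes to each other, lie in tandem on X and carried 7 of the 16 IDR summits. ph-p (FBgn0004861, dm6 X 2126210 to 2138371, minus strand) had a peak interval of 1166 bp with summits at 443 bp upstream of one TSS (signal 3582, rank 110) and 397 bp downstream of another (signal 2798, rank 264). The interval had a signal of 2038 in replicate 1, 535 in replicate 2 and 1240 in replicate 3, or a relative signal of 7.95 ± 2.59 (SD, n = 3). It was high in all 3 replicates, but its rank among the IDR peaks was 780 in replicate 2, against 27 and 52 in replicates 1 and 3. Further IDR summits of ph-p lay in introns 1267 bp and 2174 bp downstream of the nearest TSS, with signals of 1087 and 544.

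ph-d (FBgn0004860, dm6 X 2115727 to 2123286, minus strand) was strongest outside the 500 bp window, in the 2923 bp that separate it from ph-p. That summit lay 874 bp upstream of the ph-d TSS with a signal of 2404 at rank 368, and with signals of 1013, 431 and 979 in replicates 1, 2 and 3. Its relative signal was 5.33 ± 1.43 (SD, n = 3), below that of the ph-p interval in every replicate, with log2 ratios of −1.01, −0.31 and −0.34 in replicates 1, 2 and 3. The other ph-d summits were weak, at 134 bp downstream of a TSS (signal 437) and 344 bp upstream of another (signal 314). Since ph-p ends at the other side of the same stretch, the strong peak cannot be given to one gene by position alone. The paralogs share sequence: 27.8% of the 30-base stretches of the ph-d region also occur in the ph-p region. None of the stretches in the 3 ph-d peaks are repeated in the genome, and 5.89% of those in the strong ph-p interval are. The strongest summit of each gene is shown with a short site at the weakest ph-d summit, to set strong and weak summits of the locus side by side. They are read from the plus strand of dm6, with the summit at base 126 of the 250-base stretches. Capitals mark AGTGTTG on either strand, the 7 bases most over-represented at strong summits.
ph-p intron, chrX:2137173-2137422: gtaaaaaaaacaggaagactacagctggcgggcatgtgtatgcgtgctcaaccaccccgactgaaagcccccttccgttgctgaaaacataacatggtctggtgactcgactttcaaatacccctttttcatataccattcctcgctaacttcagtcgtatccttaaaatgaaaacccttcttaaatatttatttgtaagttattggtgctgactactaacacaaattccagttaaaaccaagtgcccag
ph-d upstream, chrX:2124035-2124284: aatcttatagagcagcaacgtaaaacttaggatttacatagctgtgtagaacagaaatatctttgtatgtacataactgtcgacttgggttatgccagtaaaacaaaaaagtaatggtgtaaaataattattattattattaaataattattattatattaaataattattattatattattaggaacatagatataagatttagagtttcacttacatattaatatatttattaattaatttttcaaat
ph-d intron site, chrX:2122144-2122170: caactttgtaCAACACTagccccaccg
The 2 strong stretches hold no AGTGTTG, and the ph-d stretch is 20.4% G and C, while the weak intron summit of ph-d has the site 21 bp from it.

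Scm, a SAM and MBT domain protein that binds Polyhomeotic (FBgn0003334, dm6 3R 9633359 to 9637611, minus strand), had 1 IDR peak with its summit 56 bp upstream of its TSS and a signal of 487. Scm had signals of 237, 136 and 120 in replicates 1, 2 and 3, and a relative signal of 1.102 ± 0.233 (SD, n = 3), within the replicate spread of Pc. Sfmbt (FBgn0032475, dm6 2L 13169649 to 13176785, minus strand) had a peak of 829 bp with summits 210 bp (signal 2976, rank 229) and 414 bp (signal 1114, rank 1206) upstream. Sfmbt had signals of 1083, 1117 and 812 in replicates 1, 2 and 3, and a relative signal of 7.22 ± 2.93 (SD, n = 3). Within 500 bp of a TSS no other gene of the 10 besides ph-p was in this range, and Sfmbt was highest in replicate 2, where it ranked 156 among the IDR peaks. The summits also lie 155 bp and 49 bp from the TSS of CG5439, which runs the other way, and a TSS of CG43925 lies 41 bp from a TSS of Sfmbt. The peak can therefore belong to any of these genes by position.

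The DNA-binding subunits of PhoRC were weaker. phol (FBgn0035997, dm6 3L 9452803 to 9456281, minus strand) had a summit 5 bp upstream of its TSS with a signal of 396, and signals of 152, 120 and 141 in replicates 1, 2 and 3. Its relative signal was 0.962 ± 0.196 (SD, n = 3), and the same summit lies 32 bp from the TSS of CG3552 and within 500 bp of asRNA:CR45873. pho (FBgn0002521, dm6 chromosome 4, 1172469 to 1181628, minus strand) had a summit 198 bp upstream with a signal of 243. The signals of pho were 55.0, 58.4 and 85.0 in replicates 1, 2 and 3. Replicate 1 had no summit within 150 bp of the IDR summit at 1181826. Its 55.0 came from another summit, farther upstream at 1182045. With that value the relative signal of pho was 0.474 ± 0.177 (SD, n = 3), near the 0.523 ± 0.179 of Su(z)2. The order of pho and Su(z)2 rests on replicate 1, where the pho value is from that other summit. Without replicate 1 the means were 0.576 for pho and 0.423 for Su(z)2. On chromosome 4, 37.5% of 80 protein-coding genes were called at a promoter, and 37 of its 52 IDR summits were stronger than that of pho. Promoter sequences of Scm, Sfmbt and pho are given because they span the range of signal, from the plus strand of dm6, with CGATA and AGTGTTG on either strand in capitals. TATCGATA, the DRE motif, holds CGATA on both strands.
Scm promoter, chr3R:9637612-9637791: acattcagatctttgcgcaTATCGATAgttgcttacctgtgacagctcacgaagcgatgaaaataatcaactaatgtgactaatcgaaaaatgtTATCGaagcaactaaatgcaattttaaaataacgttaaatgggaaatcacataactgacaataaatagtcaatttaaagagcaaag
Sfmbt promoter, chr2L:13176889-13177119: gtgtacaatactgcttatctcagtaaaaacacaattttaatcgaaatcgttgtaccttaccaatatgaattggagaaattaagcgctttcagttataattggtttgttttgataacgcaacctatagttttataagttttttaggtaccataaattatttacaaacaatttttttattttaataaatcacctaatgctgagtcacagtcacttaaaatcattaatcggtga
Sfmbt DRE site, chr2L:13176870-13176897: gagtgattgtTATCGATAagtgtacaat
Sfmbt site 1, chr2L:13177137-13177163: caacgcttatCAACACTgtttggcttg
Sfmbt site 2, chr2L:13177172-13177198: tcaagcaaccAGTGTTGgcacacaacg
pho promoter, chr4:1181701-1181950: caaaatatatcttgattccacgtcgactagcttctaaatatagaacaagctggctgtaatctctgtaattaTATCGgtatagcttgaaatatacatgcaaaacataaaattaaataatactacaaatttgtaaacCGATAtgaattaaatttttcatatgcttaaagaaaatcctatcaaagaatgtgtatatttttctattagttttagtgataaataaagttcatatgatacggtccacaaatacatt
The strong and the weak promoters both hold CGATA near the summit, and Sfmbt alone of these 3 also holds AGTGTTG, at 49 bp and 14 bp from its second summit.

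Counts of short motifs in the 300 bp around the summits set the printed sequences beside the whole set. CGATA lay at 6 of the 16 member summits (37.5%), namely those of Pc, Scm, pho and phol, the stronger one of Sfmbt and 1 of ph-p, and at 44.2% of all 8630 IDR summits. The share was 55.1% at IDR summits within 500 bp of a TSS and 27.95% at those farther away. At TSSs of protein-coding genes without an IDR summit within 500 bp it was 39.7%. TATCGATA, bound by the DREF factor, lay at 2 of 16 (12.5%), at Scm and Sfmbt, and at 9.40% of all IDR summits. GCCAT, the core of Pho and Phol sites, lay at 5 of 16 (31.3%) and at 36.7% of all, and GAGAG, read by the GAGA factor Trl, at 6 of 16 (37.5%) and 29.0% of all. Su(z)2 had 8 matches to GAGAG, overlaps included, at its summit, the most of any member. CAGCTG lay at 4 of 16 (25%) and 15.8% of all, and GGTCACACT, the M1BP site, at none of the 16 and 5.85% of all. That motif did lie in the window at the uncalled Sce promoter. Of the 16 member summits, 11 lay within 500 bp of a TSS. At all IDR summits that close, the shares were 15.2% for TATCGATA, 37.4% for GCCAT, 26.3% for GAGAG, 20.2% for CAGCTG and 9.63% for GGTCACACT. Both strands were searched, and the letters at a summit do not show that the factor was there.

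AGTGTTG was found from the data, as the 7 bases with the largest excess within 50 bp of the 1000 strongest summits outside these genes. It lay there in 24.9% of peaks, against a mean of 1.00% in flanks 350 bp away. In 300 bp windows it was at 3 of the 16 member summits (18.8%), 1 each of Psc, ph-d and Sfmbt, with 2 copies at Sfmbt, and at 10.9% of all IDR summits. Among the 1000 strongest IDR summits the share was 41.2%, but the 7 bases were picked at nearly the same summits, so this share is no independent check. Over 8222 protein-coding genes without an IDR summit at a promoter, AGTGTTG lay in 3.41% of windows at the TSS. The strongest summits of ph-p and ph-d and the strong peak between Psc and Su(z)2 hold none, which says only that these letters are not in those windows.

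Psc and Su(z)2, which encode related RING-domain subunits, face away from each other on 2R across 15506 bp (dm6 2R 12980995 to 12996500). Psc (FBgn0005624, 2R 12965997 to 12980994, minus strand) had IDR summits in an intron 5064 bp downstream of a TSS (signal 958, rank 1459) and in its 5′ UTR at 591 bp (signal 656, rank 2332), just outside the promoter window. Psc had signals of 497, 130 and 342 at the intron summit and of 250, 204 and 209 at the 5′ UTR summit in replicates 1, 2 and 3. The relative signals were 2.03 ± 0.692 and 1.55 ± 0.354 (SD, n = 3 each), and their order changed with the replicate. The intron summit was higher in replicate 1 (2.455 against 1.235) and replicate 3 (2.41 against 1.473), and lower in replicate 2 (1.236 against 1.931). Within 500 bp of a Psc TSS the strongest signal was 103, 85.9 and 108 in replicates 1, 2 and 3. These were not 1 site. In replicate 1 the summit lay 118 bp downstream of a TSS, and in replicates 2 and 3 it lay 427 bp and 406 bp downstream of another. Replicate 1 had 51.3 at its summit 374 bp downstream. The Psc gene held 13 summits of the pooled relaxed list, the most of the 10 genes. Su(z)2 (FBgn0265623, 2R 12996501 to 13007911, plus strand) had 1 weak IDR summit 24 bp upstream of its TSS with a signal of 252, and 146, 39.8 and 66.7 in replicates 1, 2 and 3. This promoter summit was the strongest of the gene in replicate 1 and in the pooled list. In replicates 2 and 3 a 3′ UTR summit was stronger, with 57.1 and 75.3, at 9491 bp and 9532 bp downstream of a TSS.

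The strongest peak of this locus lay in neither gene. The 15506 bp between Psc and Su(z)2 held an IDR summit at 12985217, 4223 bp from the 5′ end of Psc and 11284 bp from Su(z)2, with a signal of 3566 at rank 111, next to the ph-p summit in the list. It had signals of 1632, 607 and 1350 in replicates 1, 2 and 3, and a relative signal of 7.77 ± 1.89 (SD, n = 3). It is outside the rule for either gene and is not counted above. A TSS of the noncoding gene lncRNA:CR44339 lies within 500 bp of this summit, so the peak can belong to that gene by position. A TSS of CG33798 also lies in the stretch, 2580 bp from the Su(z)2 summit. A weaker IDR summit with a signal of 514 lay in the same stretch, 4896 bp from Su(z)2. The 2 loci with paralogs in tandem or back to back thus each held a strong peak between the genes, at Psc and Su(z)2 near the TSS of lncRNA:CR44339.

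Within each of the 3 pairs of paralogs the strongest signal within 500 bp of a TSS was compared in the same replicate. The log2 ratio of ph-d over ph-p was −2.93 ± 0.46 (SD, n = 3), with ph-d lower in every replicate. With a window of 1000 bp, which takes in the peak 874 bp upstream of ph-d, the ratio was −0.55 ± 0.39, again with ph-d lower in every replicate, so the size of the difference rests on that window. For phol over pho it was 1.08 ± 0.37 (SD, n = 3), with phol higher in all 3 replicates and the same value at 1000 bp. The log2 ratios were 1.47, 1.04 and 0.73 in replicates 1, 2 and 3. The pho summit of replicate 1 was at 1182045, against 1181876 and 1181830 in replicates 2 and 3. The phol over pho ratio of replicate 1, the largest, was therefore taken at another pho site. For Su(z)2 over Psc the log2 ratio was −0.44 ± 0.84 (SD, n = 3), with Su(z)2 higher in 1 replicate of 3, and −1.59 ± 0.79 at 1000 bp. At 500 bp the Psc summit of replicate 1 was at another site than in replicates 2 and 3, so that ratio mixes positions too. The exact two-sided sign-flip permutation test gave p = 0.25 for ph-d over ph-p and for phol over pho and p = 0.5 for Su(z)2 over Psc, or 0.375, 0.375 and 0.5 with Benjamini-Hochberg adjustment over the 3 pairs. As 3 replicates allow no exact p below 0.25, none could pass 0.05.

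**Figure D3:**
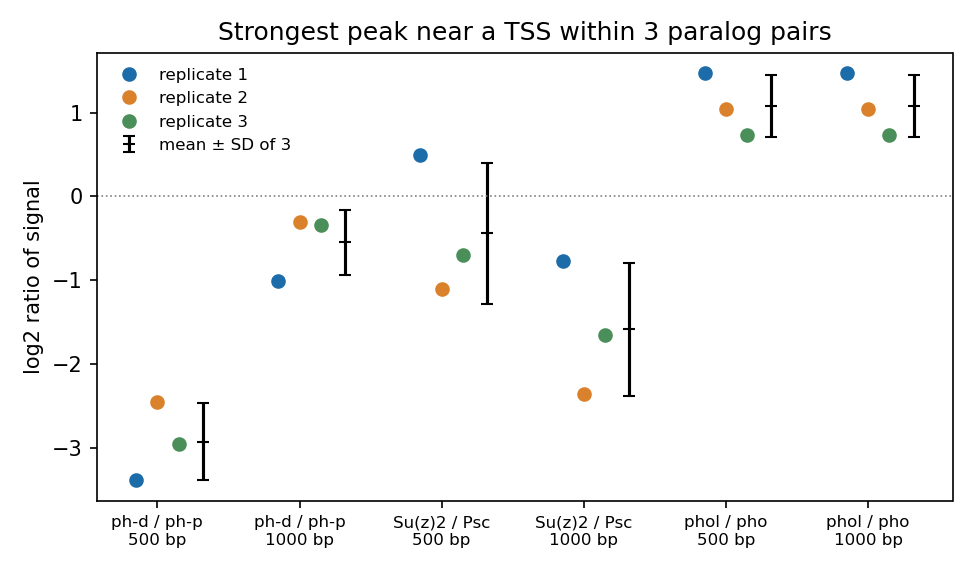
The y axis is the log2 ratio of the strongest signal near a TSS, first-named gene over second, for 3 pairs of paralogs at 500 bp and 1000 bp, with points for the 3 replicates and bars for mean ± SD. The ph-d over ph-p mean is −2.93 at 500 bp and −0.55 at 1000 bp, while phol over pho is 1.08 at both.

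The replicates differed in balance at these genes. Over all IDR summits, replicate 2 gave less weight to summits away from promoters: its relative signal over the mean of replicates 1 and 3 had a median of 0.638 (interquartile range 0.521 to 0.801) at summits farther than 500 bp from every TSS and 1.36 (0.880 to 1.70) at those within 500 bp. Of the members, Sfmbt had a ratio of 1.92, Pc 1.43, the 5′ UTR summit of Psc 1.43, phol 1.31, Scm 1.28 and pho 1.27. All of these lie in the promoter range, with Sfmbt above its upper quartile. The ph-p summits had ratios of 0.525 to 0.595, Su(z)2 0.633 and the Psc intron summit 0.508. ph-d lay between these members' values, at 0.687 for its strong summit, inside the range of summits away from promoters. Its other summits had 0.880 and 0.883, at the lower quartile of promoter summits. Of the 11 member summits within 500 bp of a TSS, 5 had a ratio below 1, all of them at ph-p, ph-d and Su(z)2, beside 30.7% of the 5152 such IDR summits. Summits in the same interval share 1 ratio, as do those of ph-p and those of Sfmbt in this count. The strong summit between Psc and Su(z)2 had 0.655. The values of ph-p and of that summit without replicate 2 are therefore higher, and that of Sfmbt lower: the relative signal was 9.40 for ph-p and 5.53 for Sfmbt from replicates 1 and 3 alone.

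**Figure D4:**
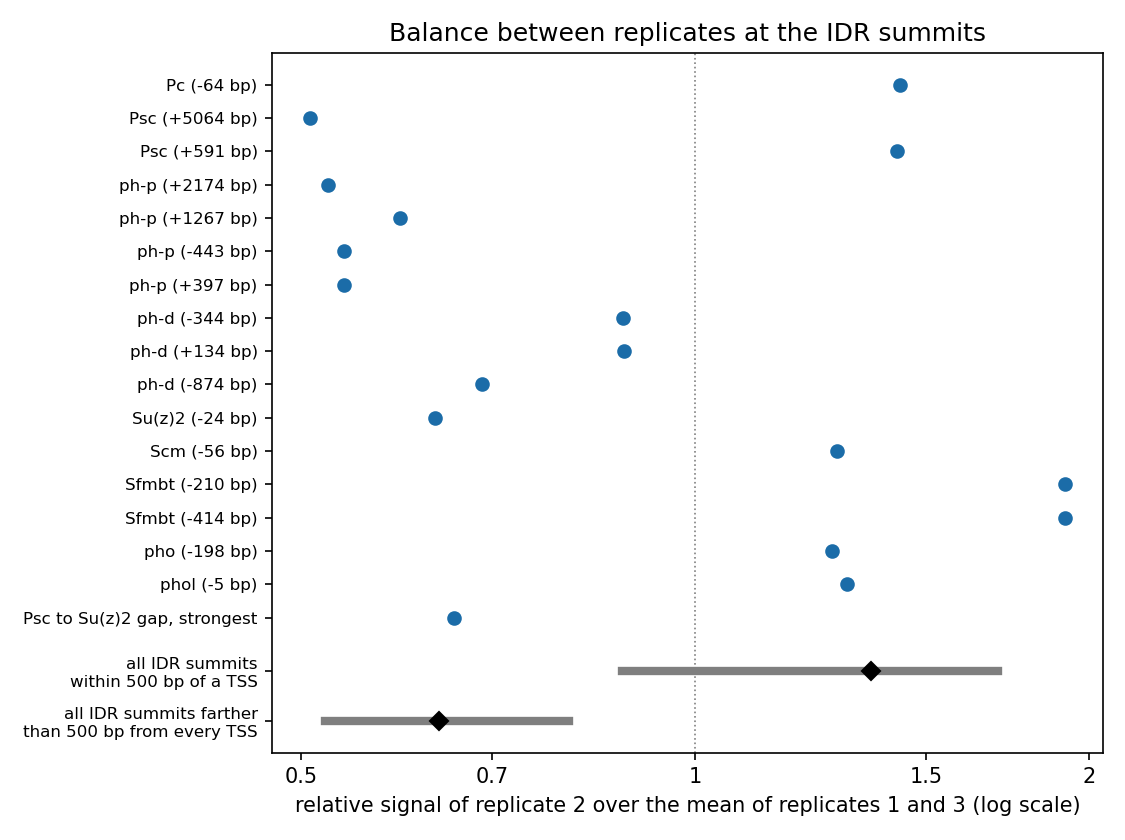
The x axis is, on a log scale, the relative signal in replicate 2 over the mean of replicates 1 and 3 at each of the 16 member summits and at the strongest summit between Psc and Su(z)2, with the median (diamond) and interquartile range (bar) of all IDR summits in the lowest rows. Points of Pc, Scm, Sfmbt, pho, phol and 1 of Psc lie right of 1, and those of ph-p, ph-d and Su(z)2 left of it.

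Other genes of the Polycomb and Trithorax systems were read from lists by the same promoter measure, under which 41.0% of all protein-coding genes were called. Of 13 further PRC1 and Polycomb-associated genes, 11 were called, with the strongest signals at Su(z)12 (3785), RYBP (2548) and l(3)mbt (1757), and with calypso and sxc not called. Of 8 genes of PRC2, the methyltransferase complex whose mark Pc reads, 7 were called, led by E(z) (3919), Su(z)12 and esc (2888), and escl was not. All 7 factors reported to recruit Polycomb complexes were called, with signals of 242 to 652, led by cg (652), grh (531) and z (435). Of 21 Trithorax group and Brahma genes, which act against Polycomb silencing, 16 were called, led by Snr1 (3999), fs(1)h (3712) and brm (1799), while ash2, e(y)3, kto, Set1 and tna were not. The median strongest signal of the called genes was 571 in the further PRC1 list, 1347 in PRC2, 362 in the recruiters and 632 in the Trithorax list, beside 462 for the 8 called PRC1 and PhoRC genes. Su(z)12 and Pcl stand in both of the first lists, the lists are small, and no test was made between them.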

How the data were processed

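Peak lists of 3 biological replicates, 1 group, were read as deposited. Per the labels, each replicate and a pool of alignments were compared with a control library (not analysed here) to call relaxed peaks, from which the IDR set was derived. The labels name replicates 2 and 3 as the pooled ones, but at 7502 IDR peaks alone in their interval the pooled signal over the sum of all 3 replicates had a median of 0.991, and over that of replicates 2 and 3 it was 1.82. The IDR threshold, aligner and caller, with their versions, were not given in the sources used here. Each peak's signal is used as given by the authors, and lists were not put on 1 scale by the authors. That it measures enrichment over control is assumed. Since the pooled signal fits the sum of the replicates, it is not read as a fold enrichment. Since every IDR summit had the same deposited −log10 q value of 4.41, ranks use signal. Whether replicates came from separate cultures is not stated, and the SD then covers only the spread between these samples.

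Positions are 1-based on dm6. Genes came from Ensembl release 115, and sequences from the Release 6 RefSeq genome, read with Python 3.11.15, numpy 2.4.6 and pandas 2.3.3. A replicate's value at an IDR peak was that of its strongest overlapping relaxed peak. The promoter calls, the matching of replicate peaks by overlap, the sign-flip test, the motif search and the repeat counts were tested on simulated summits and sequences. The other steps were not tested in this way. The genes, lists, motifs and alternatives were chosen with earlier results of these data known. Every one of the 10 genes was named whatever its values, with genes sharing a promoter peak, and of the other lists the 3 strongest and those not called. AGTGTTG and its window lengths were chosen after seeing the data.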

Additional observations from a re-analysis of the deposited data

How the results depend on the processing

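Among the 4315 strongest IDR summits, 5 of the 10 genes were called within 500 bp of a TSS (Pc, ph-p, ph-d, Scm and Sfmbt), beside 26.0% of all protein-coding genes, against 8 and 41.0% with the whole set. With the 4315 strongest peaks of each replicate, 2 were called in every replicate (ph-p and Sfmbt), beside 20.0% of all genes, against 7 and 33.8%. Leaving out 1 replicate gave 7 to 8, beside 35.0% to 37.5%. The median relative signal over the 9 genes with an IDR summit was 1.18, and 0.988 when scaled to promoter peaks or 4.69 when scaled to the whole relaxed lists, which changes the unit. Leaving out 1 replicate gave 1.03 to 1.32. Su(z)2 over Psc was 0.39 in the pooled list, the reverse of −0.44, and −0.90 to −0.10 with 1 replicate left out. The cause was not tested. With 1 replicate left out, ph-d over ph-p ran from −3.17 to −2.71 and phol over pho from 0.89 to 1.26.

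All other alternatives kept the direction of each ratio and kept each count within 1.5 times its value, with 6 of 10 genes called at 200 bp (33.2% of all genes), where ph-p and Sfmbt drop out, and 9 at 1000 bp (44.6%), where Psc enters. AGTGTTG lay at 3 member summits in 200 bp windows and 4 in 600 bp. Depth is unknown, so values near the edge of the IDR set, such as those of Sce, Su(z)2 and pho, have no counting interval.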
